A study of Mus musculus with 12 samples.

Results

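The genes described here are 7 stress regulators of mouse liver: Atf4, Atf5, Atf3, Ddit3 (which encodes CHOP), Trib3, Nupr1 and Chac1. They were taken by name, and each was read through every probeset that the array annotation gives to that gene and no other. This gave 12 probesets, of 45037 tested, for 7 of 7 genes, of 18193 genes with a probeset of their own. Ddit3, Trib3 and Nupr1 had 2 probesets each, Atf4 had 3, and Atf3, Atf5 and Chac1 had 1.

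Liver RNA from 12 mice was measured on 1-colour Affymetrix arrays, 1 animal per array, in 4 groups of 3. Wild-type (Atf6a +/+) animals and animals lacking ATF6alpha (Atf6a-/-) were given tunicamycin (TM) at 2 mg/kg or vehicle by intraperitoneal injection, and the livers were taken 8 h later. All groups received the 150 mM dextrose in which TM was dissolved, and animals of both genotypes were fasted before sacrifice and were of mixed age and sex. The sources used here do not state their strain. The liver was homogenised whole, so fewer cells of one type and less RNA per cell cannot be told apart, and the labels name no tissue or cell type to which the Atf6a deletion was limited.

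TM blocks N-linked glycosylation, so that glycoproteins misfold in the ER and the unfolded protein response is switched on through the sensors PERK, IRE1 and ATF6. PERK phosphorylates eIF2alpha, which slows most translation but favours translation of the Atf4 mRNA. ATF4 is a basic leucine zipper (bZIP) transcription factor that induces genes of amino acid supply and further regulators, among them CHOP, ATF3, TRIB3 and CHAC1. In liver this route is known for its part in the response to amino acid lack as well as to ER stress. ATF6alpha is the sensor that is cut in the Golgi to release a transcription factor for ER chaperones, and comparing the genotypes asks how these regulators respond when it is missing.

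Several of these genes are known to be induced through a short promoter element that C/EBP and ATF dimers bind, written TTGCATCA. The promoters of Atf3, Nupr1, Chac1, Trib3 and Ddit3 are shown because they held a match to this element, to the same element with 1 base free, or to an AP-1 element. The sequences are RefSeq's (GRCm38.p6), 5′ to 3′ on the gene's strand, from 250 bases before the gene start to 50 after it. Capitals mark TTGCATCA in Atf3, Nupr1 and Chac1, TTACATCA in Trib3 and TGACTCA in Ddit3.
Atf3, chr1:191183284-191183583, minus strand: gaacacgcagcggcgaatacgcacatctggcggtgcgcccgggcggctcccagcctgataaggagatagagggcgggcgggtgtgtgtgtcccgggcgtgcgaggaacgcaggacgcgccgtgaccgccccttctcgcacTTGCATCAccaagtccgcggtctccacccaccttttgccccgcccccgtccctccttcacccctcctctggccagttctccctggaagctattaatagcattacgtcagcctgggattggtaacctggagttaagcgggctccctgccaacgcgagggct
Nupr1, chr7:126625421-126625720, minus strand: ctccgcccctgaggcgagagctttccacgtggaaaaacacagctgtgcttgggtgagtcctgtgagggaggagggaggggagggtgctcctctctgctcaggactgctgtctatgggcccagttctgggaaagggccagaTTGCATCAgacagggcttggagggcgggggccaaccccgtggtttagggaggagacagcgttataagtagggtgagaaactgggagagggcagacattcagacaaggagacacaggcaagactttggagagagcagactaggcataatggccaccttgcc
Chac1, chr2:119350992-119351291, plus strand: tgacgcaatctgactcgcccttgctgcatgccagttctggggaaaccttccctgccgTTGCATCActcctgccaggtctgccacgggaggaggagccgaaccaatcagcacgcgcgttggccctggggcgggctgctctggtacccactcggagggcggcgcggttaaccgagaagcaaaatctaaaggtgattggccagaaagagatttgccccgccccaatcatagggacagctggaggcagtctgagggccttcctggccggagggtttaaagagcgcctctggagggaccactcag
Trib3, chr2:152344011-152344310, minus strand: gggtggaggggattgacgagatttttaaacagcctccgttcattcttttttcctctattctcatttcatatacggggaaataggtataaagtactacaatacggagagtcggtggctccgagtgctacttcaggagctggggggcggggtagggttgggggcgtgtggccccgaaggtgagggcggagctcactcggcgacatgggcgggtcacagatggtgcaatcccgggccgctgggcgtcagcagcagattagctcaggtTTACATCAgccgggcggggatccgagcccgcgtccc
Ddit3, chr10:127290543-127290842, plus strand: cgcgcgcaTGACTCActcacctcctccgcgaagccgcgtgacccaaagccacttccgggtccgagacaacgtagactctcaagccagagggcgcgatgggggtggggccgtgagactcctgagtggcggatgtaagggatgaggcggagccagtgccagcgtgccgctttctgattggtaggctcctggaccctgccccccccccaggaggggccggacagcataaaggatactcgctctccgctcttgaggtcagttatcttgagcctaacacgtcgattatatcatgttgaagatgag

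The table held 8 promoters for the 7 genes, since Atf5 had 2. TTGCATCA, read on both strands, stood in 3 of the 8 and in 294 of all 32851 promoters of this length (0.895%). In Atf3 and in Nupr1 it lay at the same place, from -110 to -103 relative to the gene start, and in Chac1 it lay from -193 to -186. The looser form TGATGNAA, which overlaps the first, added the match in Trib3 at 15 to 22 after the start and was present in 4 of the 8, against 3.97% of all promoters. The AP-1 element TGANTCA matched 1 of the 8, in Ddit3 from -242 to -236, against 7.81%. No exact match was found to the cAMP response element TGACGTCA (1.79% of all promoters) or to the ER stress element of ATF6, CCAAT and CCACG separated by 9 bases (0.119%). Forms with a changed base were not searched for in these elements. On its other strand the Ddit3 promoter holds CCAAT and GCACG separated by 9 bases, which is 1 base off the ER stress element. How many of all promoters, or of the other member promoters, hold such a form was not counted, so it cannot be called particular to Ddit3. The shorter form TGACG stood in 4 of the 8 (20.8% of all) and the CCACG part in 4 of the 8 (32.8%). These are matches of letters in 300 bases, and binding was not measured.

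Values are given as the deposited log2 RMA values, so that a difference of 1 is a factor of 2, and in each list of values the 3 arrays follow the animal numbers. Levels were not compared between genes, because probesets differ in brightness. A probeset was called when limma's p, adjusted by Benjamini-Hochberg over all 45037 probesets, was under 0.05 and the difference was over 1.5-fold. The probesets of an array had a median between 4.98 and 5.11 and a highest value between 14.90 and 14.97. Arrays of a group correlated at 0.987 to 0.996 over all probesets.

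Atf6, the deleted gene, was checked first. On its brightest probeset it read 8.74, 9.47 and 8.90 in wild-type vehicle animals and 7.03, 7.15 and 7.79 in Atf6a-/- vehicle animals. All 3 Atf6 probesets were lower in every Atf6a-/- vehicle array than in every wild-type one, by 0.77 to 1.71, but none was called (lowest limma adjusted p = 0.184). Atf6 signal rose with TM in both genotypes, by 1.94 to 2.92 in wild-type and by 2.82 to 3.24 in Atf6a-/-. Under TM the probesets differed by only -0.82, -0.70 and -0.20, Atf6a-/- minus wild-type, and none was called (lowest limma adjusted p = 0.0738). Which part of the transcript the probesets read was not analysed here, so these levels do not by themselves check the genotype labels. The Y-linked gene Eif2s3y (probeset 1417210_at) was between 8.21 and 8.98 in 1 array of each group and between 3.04 and 3.44 in the other 8, and Xist was low in the same 4 arrays. The 8 hepatocyte markers averaged 13.8 to 14.0 on every array. Between the genotypes under TM, limma called 0 of 40 markers of liver and blood cell types, and 2 of the 40 had an unadjusted p under 0.05. With TM, 3 of the 40 were called in wild-type and 9 in Atf6a-/-, and their part in the values of the 7 genes was not tested.

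TM raised all 7 genes in both genotypes. Of their 12 probesets, 11 were called higher in wild-type liver and 11 in Atf6a-/- liver, and none lower. Over all probesets, 7.1% were called higher and 4.95% lower with TM in wild-type, and 10.6% and 5.95% in Atf6a-/-. The median difference over the 7 genes was 5.10 in wild-type and 6.13 in Atf6a-/- on the log2 scale, while the median over all probesets was -0.04 and -0.09. The 6 probesets of Nupr1, Atf3, Trib3 and Ddit3 1417516_at held the first 6 places of all 45037 by size of increase in Atf6a-/-, and places between 1 and 12 in wild-type. For each of the 11 probesets, in each genotype, the lowest TM array was above the highest vehicle array. The share of all probesets separated in this way was not counted. Of all probesets, 28.6% had an unadjusted limma p under 0.05 with TM in wild-type and 38.9% in Atf6a-/-.

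**Figure D1:**
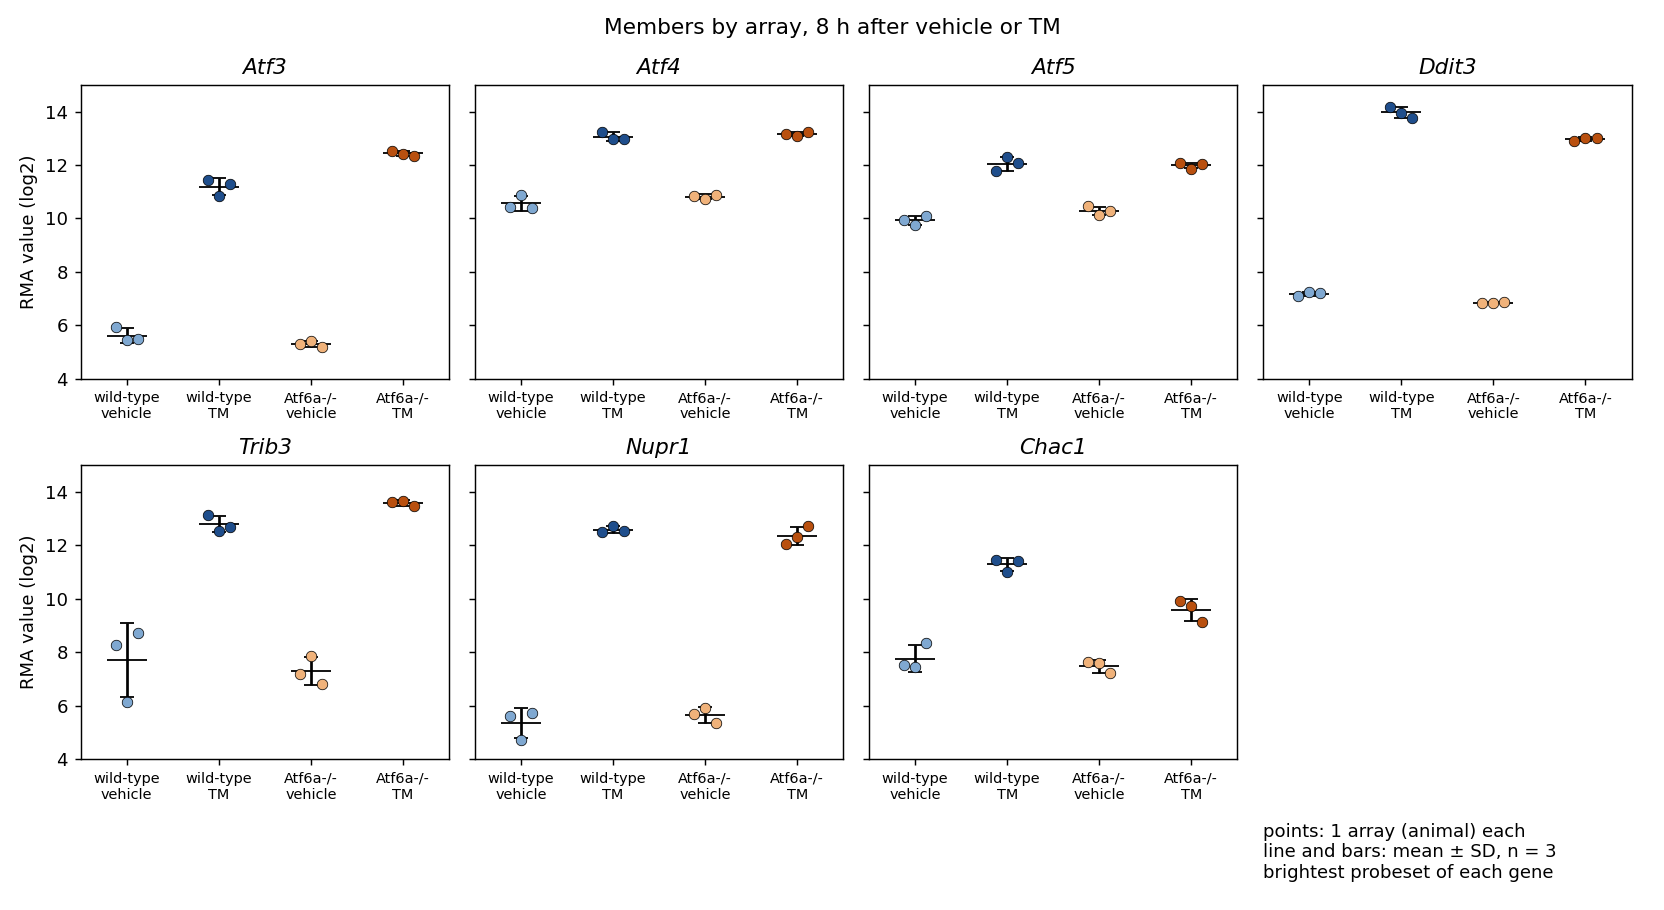
Deposited log2 RMA values of the 7 genes, each by its brightest probeset, in the 4 groups. Each point is 1 animal, and the line and bars are the mean and SD of 3. The 6 TM arrays of each gene lie above its 6 vehicle arrays, the 2 TM groups stand apart for Atf3, Ddit3, Trib3 and Chac1, and Trib3 spreads from 6.13 to 8.71 in wild-type vehicle animals.

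Atf4, whose product is the central factor of this pathway, was brightest on probeset 1448135_at, which read 10.44, 10.89 and 10.38 in wild-type vehicle and 13.25, 12.97 and 12.99 in wild-type TM animals. In Atf6a-/- animals it read 10.84, 10.73 and 10.89 with vehicle and 13.14, 13.10 and 13.23 with TM. The vehicle and TM arrays were far apart, and the 2 genotypes overlapped within each treatment. TM raised Atf4 by 2.50 in wild-type (SE 0.13, 5.65-fold, limma adjusted p = 1.65e-07) and by 2.34 in Atf6a-/- (SE 0.13, 5.07-fold). A second Atf4 probeset, 1438992_x_at, read 7.27, 7.28 and 6.61 in wild-type vehicle, 10.12, 9.93 and 9.98 in wild-type TM, 7.53, 7.35 and 7.51 in Atf6a-/- vehicle and 9.88, 10.03 and 10.38 in Atf6a-/- TM animals. It rose by 2.96 and 2.63 with TM, and with vehicle the genotypes differed by 0.41 without overlap (unadjusted p = 0.0362 and adjusted p = 1.00 by limma). The third, 1439258_at, differed by only 0.20 in wild-type (95% confidence interval -0.04 to 0.45, limma adjusted p = 0.273) and by -0.05 in Atf6a-/-. It stayed between 5.89 and 6.40 on all 12 arrays, so the Atf4 probesets disagree, and the transcript it reads was not analysed here.

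Between the genotypes, Atf4 differed under TM by 0.09 (95% confidence interval -0.19 to 0.38) on its brightest probeset, Atf6a-/- minus wild-type. This interval leaves room for at most a 1.30-fold higher level. The responses to TM differed by -0.15 (-0.56 to 0.25). The order of the 4 groups was wild-type vehicle, Atf6a-/- vehicle, wild-type TM and Atf6a-/- TM, and only the step from vehicle to TM exceeded the spread.

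Atf5, a bZIP factor related to ATF4 whose mRNA is likewise translated under eIF2alpha phosphorylation, read 9.94, 9.77 and 10.09 in wild-type vehicle and 11.76, 12.29 and 12.06 in wild-type TM animals. In Atf6a-/- animals it read 10.45, 10.14 and 10.28 with vehicle and 12.06, 11.87 and 12.03 with TM. The vehicle groups did not overlap, and differed by 0.36, Atf6a-/- minus wild-type, but this was not called (unadjusted p = 0.0239 and adjusted p = 1.00 by limma). TM raised Atf5 by 2.10 in wild-type (SE 0.14, 4.30-fold) and by 1.70 in Atf6a-/- (SE 0.14, 3.24-fold), the smallest increases of the 7 genes by brightest probeset. Under TM the genotypes overlapped and differed by -0.05 (95% confidence interval -0.35 to 0.25). The responses differed by -0.41 (-0.83 to 0.02), which was not called (limma adjusted p = 0.476).

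Atf3 encodes a bZIP factor that forms dimers with other bZIP proteins, among them c-Jun and CHOP, and is induced by many stresses. It read 5.93, 5.44 and 5.47 in wild-type vehicle and 5.31, 5.41 and 5.20 in Atf6a-/- vehicle animals, close to the array median. With TM it read 11.45, 10.85 and 11.27 in wild-type and 12.52, 12.42 and 12.36 in Atf6a-/- animals. Each Atf6a-/- TM array was above each wild-type TM array. TM raised Atf3 by 5.58 in wild-type (SE 0.16, 47.9-fold, limma adjusted p = 9.87e-10) and by 7.13 in Atf6a-/- (SE 0.16, 140-fold, limma adjusted p = 1.40e-10).

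Under TM Atf3 was 2.36-fold higher in Atf6a-/- than in wild-type liver (1.24 on the log2 scale, 95% confidence interval 0.89 to 1.59, limma adjusted p = 8.49e-04). The response itself was larger in Atf6a-/-, by 1.55 (SE 0.23, interval 1.06 to 2.04, limma adjusted p = 0.00632). In the vehicle groups the order was the other way, with a difference of -0.31 (interval -0.65 to 0.04), which was not called. Atf3 was the single member whose response to TM was called different between the genotypes.

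Ddit3 encodes CHOP, a bZIP protein of the C/EBP family that ATF4 induces and that is linked to cell death in prolonged ER stress. Its brighter probeset, 1417516_at, read 7.08, 7.23 and 7.22 in wild-type vehicle and 14.19, 13.95 and 13.77 in wild-type TM animals. In Atf6a-/- animals it read 6.83, 6.85 and 6.85 with vehicle and 12.89, 13.02 and 13.00 with TM. The Atf6a-/- arrays were below the wild-type arrays in both treatments, without overlap. TM raised it by 6.79 in wild-type (SE 0.10, 111-fold) and by 6.13 in Atf6a-/- (SE 0.10, 69.9-fold). By limma's statistic it ranked 1 of 45037 probesets in both genotypes, with an adjusted p of 2.87e-12 in wild-type and 1.01e-11 in Atf6a-/-.

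Under TM Ddit3 was 2.00-fold lower in Atf6a-/- than in wild-type liver (95% confidence interval of the log2 difference -1.23 to -0.77, limma adjusted p = 1.99e-04). Its dimmer probeset, 1443897_at, read 5.32, 5.47 and 5.18 in wild-type vehicle and 5.07, 5.38 and 4.99 in Atf6a-/- vehicle animals, which overlapped and lay near the array median. With TM it read 7.27, 7.02 and 7.22 in wild-type and 6.13, 6.28 and 6.29 in Atf6a-/- animals, without overlap. TM raised it by 1.85 and 1.09. Under TM that probeset was lower in Atf6a-/- by 0.94 (interval -1.20 to -0.67, limma adjusted p = 8.76e-04), so both probesets moved alike. With vehicle the brighter one differed by -0.33 (-0.56 to -0.11), with an unadjusted limma p of 0.00764 and an adjusted p of 1.00. The response to TM differed by -0.67 (-0.99 to -0.35) on the brighter probeset and by -0.76 (-1.13 to -0.39) on the dimmer one. Both lay just outside the threshold, with limma adjusted p = 0.0526 and 0.0560.

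Trib3 encodes a pseudokinase that binds ATF4 and CHOP and the kinase AKT, and is itself induced by ATF4 and CHOP. Its brighter probeset, 1426065_a_at, read 8.26, 6.13 and 8.71 in wild-type vehicle and 7.19, 7.85 and 6.82 in Atf6a-/- vehicle animals. With TM it read 13.13, 12.55 and 12.70 in wild-type and 13.64, 13.65 and 13.47 in Atf6a-/- animals. Wild-type vehicle replicate 2 was far below its 2 fellows, while the 3 Atf6a-/- TM arrays lay close together and above all 3 wild-type TM arrays. TM raised Trib3 by 5.10 in wild-type (SE 0.50, 34.2-fold) and by 6.30 in Atf6a-/- (SE 0.50, 78.7-fold). The second probeset, 1456225_x_at, read 8.07, 6.52 and 8.41 in wild-type vehicle and 6.83, 7.25 and 6.46 in Atf6a-/- vehicle animals, with the same array low. It rose by 4.97 in wild-type and 6.65 in Atf6a-/-. The SE of 0.50 on the first probeset stood against 0.16 for Atf3 and 0.10 for Ddit3.

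Under TM Trib3 differed between Atf6a-/- and wild-type liver by 0.79 (95% confidence interval -0.30 to 1.88, limma adjusted p = 0.547) on 1426065_a_at. On 1456225_x_at it read 12.99, 12.37 and 12.53 in wild-type TM and 13.47, 13.47 and 13.53 in Atf6a-/- TM animals, a difference of 0.86 (0.04 to 1.69, limma adjusted p = 0.311). Neither was called. Fitted to the 6 TM arrays alone, where the vehicle arrays add nothing to the spread, the same differences had limma adjusted p = 0.0288 and 0.0218. Over all alternatives with adjustment the p ran from 0.0288 to 0.803 and from 0.00750 to 0.626. The responses differed by 1.20 (-0.34 to 2.75) and 1.68 (0.51 to 2.85), not called. Without wild-type vehicle replicate 2 they differed by 1.99 and 2.25 (limma adjusted p = 0.0170 and 0.00347), and this array also carried the Y-linked signal. Without wild-type vehicle replicate 3 the difference on 1426065_a_at was 0.69. Over the alternatives with adjustment the p of the response difference ran from 0.0170 to 0.832 and from 0.00304 to 0.434, and those that called it left replicate 2 out.

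Nupr1 encodes a small chromatin-associated stress protein that ATF4 is known to induce. Its brighter probeset, 1419666_x_at, read 5.62, 4.70 and 5.71 in wild-type vehicle and 12.51, 12.73 and 12.53 in wild-type TM animals. In Atf6a-/- animals it read 5.67, 5.92 and 5.34 with vehicle and 12.05, 12.31 and 12.73 with TM. The genotypes overlapped in both treatments. TM raised it by 7.25 in wild-type (SE 0.25, 152-fold) and by 6.71 in Atf6a-/- (SE 0.25, 105-fold). The other probeset, 1419665_a_at, read 4.70, 4.66 and 5.21 in wild-type vehicle, 12.35, 12.60 and 12.54 in wild-type TM, 5.16, 5.03 and 5.09 in Atf6a-/- vehicle and 12.02, 12.24 and 12.68 in Atf6a-/- TM animals. Its increases were 7.63 and 7.22, which ranked 1 of 45037 probesets by size in both genotypes. The vehicle signal of that probeset was near the array median and above it in only 1 of 3 wild-type and 2 of 3 Atf6a-/- arrays, so its fold rests on a dim baseline.

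Between the genotypes under TM, Nupr1 differed by -0.23 (95% confidence interval -0.78 to 0.31) and -0.18 (-0.56 to 0.19) on its 2 probesets. Neither was called, with limma adjusted p = 0.779 and 0.741. The responses differed by -0.54 (-1.31 to 0.24) and -0.42 (-0.95 to 0.12).

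Chac1 encodes an enzyme that breaks down glutathione and is a known target of the ATF4, ATF3 and CHOP cascade. It read 7.51, 7.44 and 8.33 in wild-type vehicle and 7.64, 7.58 and 7.20 in Atf6a-/- vehicle animals, which overlapped. With TM it read 11.45, 11.02 and 11.42 in wild-type and 9.92, 9.73 and 9.13 in Atf6a-/- animals. The highest Atf6a-/- TM array was below the lowest wild-type one. TM raised Chac1 by 3.53 in wild-type (SE 0.25, 11.6-fold) and by 2.12 in Atf6a-/- (SE 0.25, 4.34-fold).

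Under TM Chac1 was 3.25-fold lower in Atf6a-/- (-1.70, 95% confidence interval -2.25 to -1.16, limma adjusted p = 0.00200), the largest genotype difference among the 12 probesets. With vehicle it differed by -0.29 (-0.83 to 0.26). The response differed by -1.42 (SE 0.35, interval -2.18 to -0.65), which was not called (limma adjusted p = 0.0875). Without wild-type vehicle replicate 3, the highest of that group, the response differed by -1.70 and was called (limma adjusted p = 0.0278, the lowest of a range up to 0.265 over the alternatives).

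**Figure D2:**
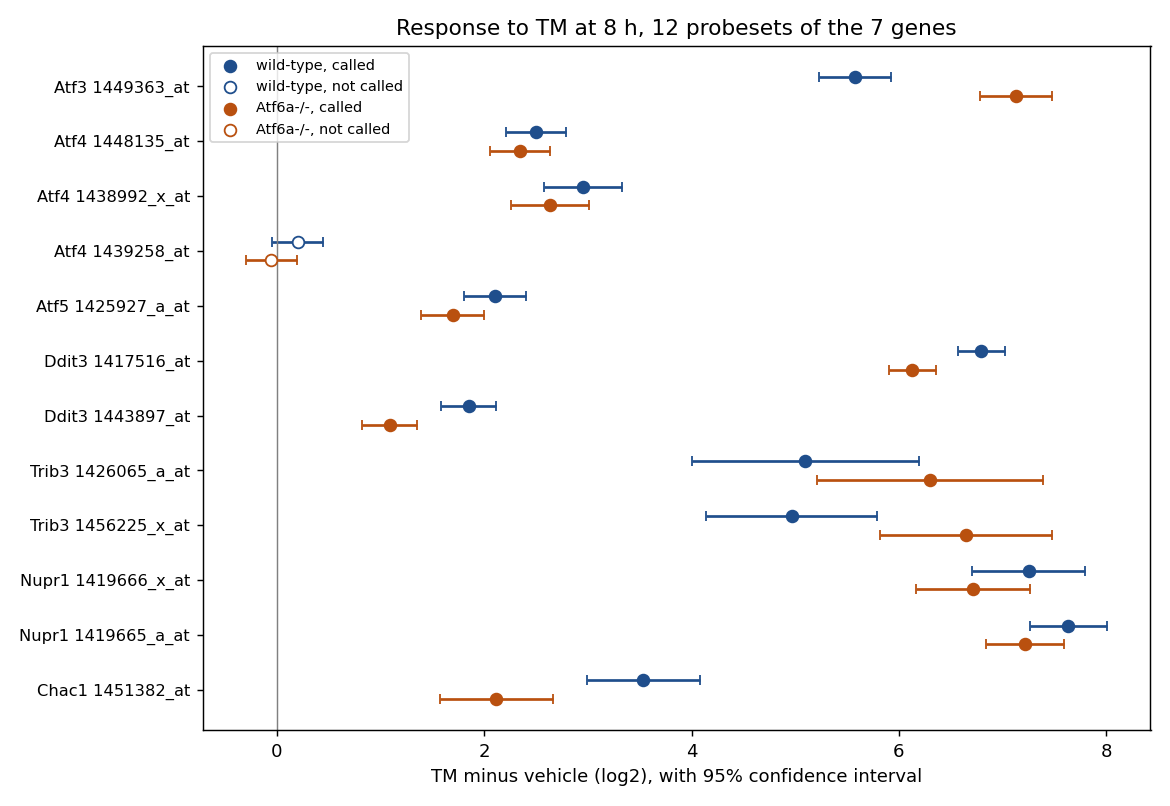
TM minus vehicle on the log2 scale for the 12 probesets in wild-type (blue) and Atf6a-/- (orange) liver, from the limma fit to 12 arrays, with 95% confidence intervals; filled points were called. The intervals of the genotypes lie apart for Atf3 and Chac1 and for both Ddit3 probesets, those of Trib3 probeset 1456225_x_at touch almost, at 5.79 and 5.82, and Atf4 probeset 1439258_at lies at 0.20 and -0.05.

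Set side by side, the 7 genes differed between the genotypes under TM in both directions. Of the 12 probesets, 1 was called higher in Atf6a-/- (Atf3) and 3 lower (both of Ddit3 and the one of Chac1), and 8 were not called. Over all probesets 1.92% were called higher and 1.19% lower in this comparison. For the difference of the response, 1 of the 12 was called larger in Atf6a-/- and 0 smaller, against 0.655% and 0.582% of all probesets. At an unadjusted limma p under 0.05, 5 of the 12 differed in response, beside 5019 of all probesets (11.1%). With vehicle, limma called 0 of the 12 in either direction, 3 of the 12 had an unadjusted p under 0.05, and the methods' t-test also found 0 over 1.5-fold. Over all probesets limma called 0% higher and 0% lower with vehicle, and 1618 probesets (3.59%) had an unadjusted p under 0.05.

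**Figure D3:**
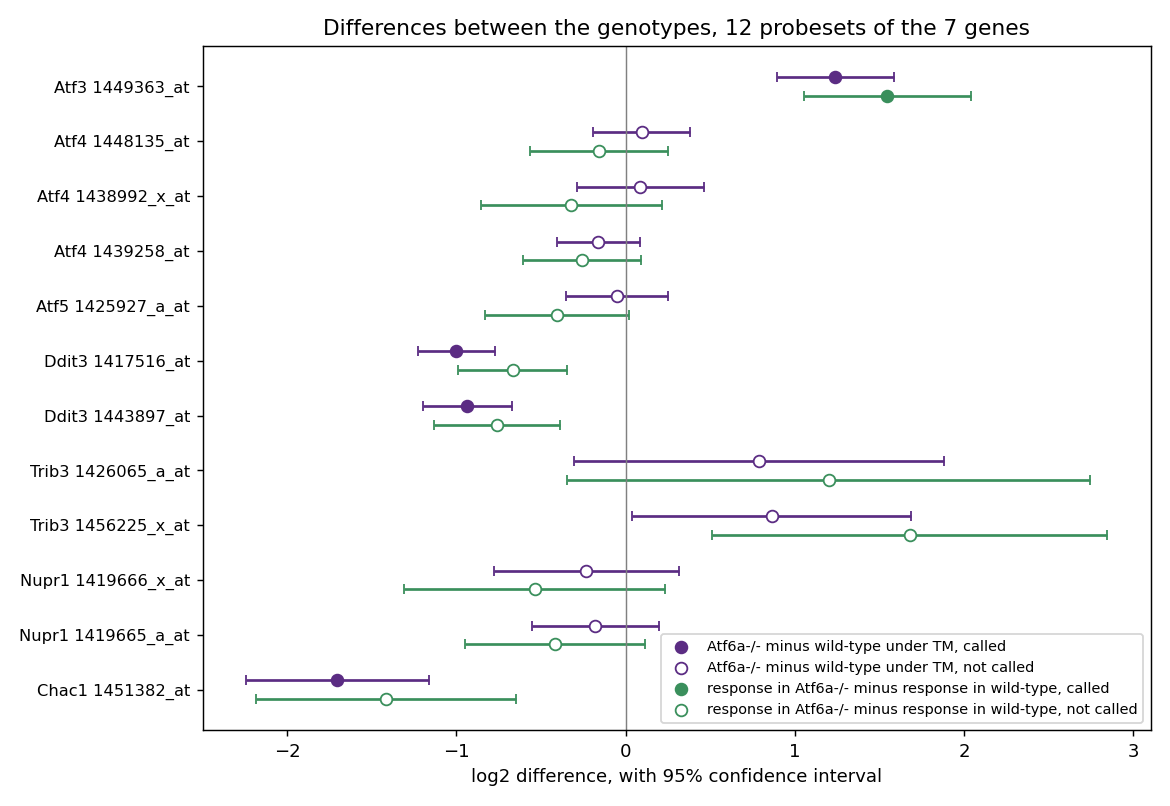
Atf6a-/- minus wild-type under TM (purple) and the response in Atf6a-/- minus the response in wild-type (green), on the log2 scale with 95% confidence intervals from limma; filled points were called. Both measures share the TM arrays. Atf3 lies above 0 and Ddit3 and Chac1 below it under TM, and only the Atf3 response was called different, at 1.55.

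Of the 4 calls under TM, the differences of Atf3, of Ddit3 on 1417516_at and of Chac1 were called in 26 of 27 alternatives with adjusted p-values each, with ranges of 1.07 to 1.38, -1.10 to -0.89 and -1.87 to -1.47. In the remaining alternative, the methods' t-test adjusted by Benjamini-Hochberg, their adjusted p was 0.172, 0.151 and 0.182, and that test called 0 of all 45037 probesets in this comparison. The call of Ddit3 on 1443897_at held in 23 of 25 such alternatives and was lost in that t-test and at a 2-fold threshold, since its difference was -0.94. The difference in response was called in 26 of the same 27 alternatives for Atf3, in 7 for Ddit3 on 1417516_at and in 1 for Chac1.

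**Figure D4:**
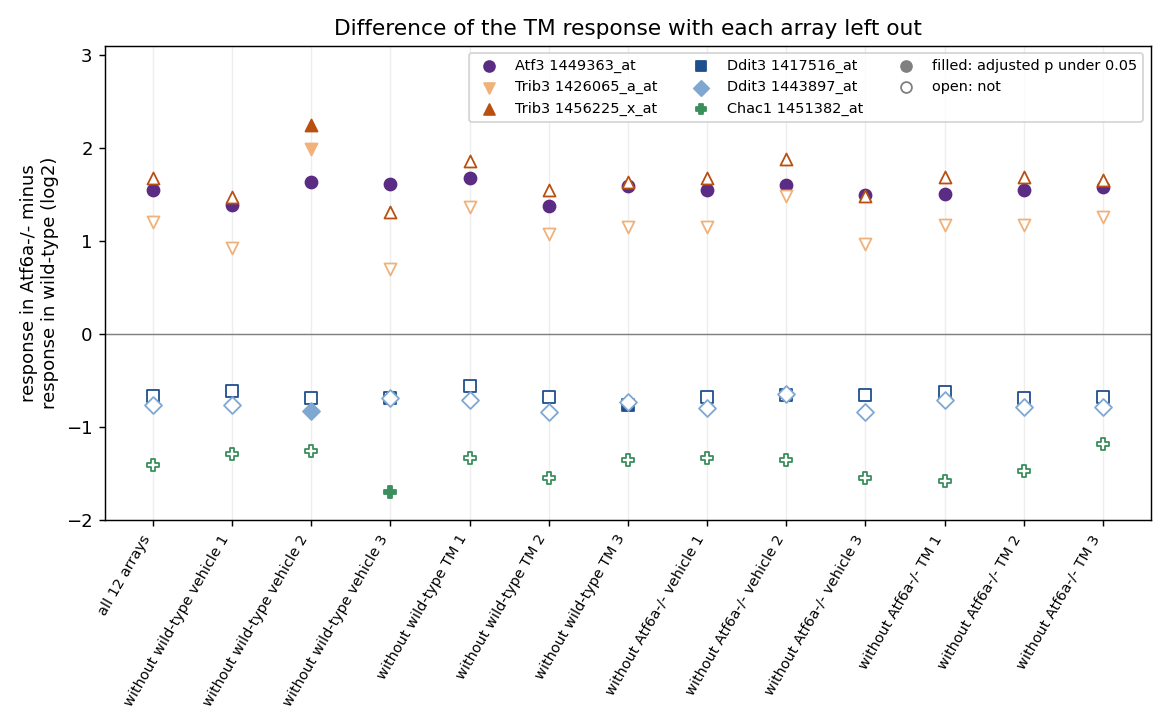
Response to TM in Atf6a-/- minus that in wild-type liver (log2) for Atf3, Trib3, Ddit3 and Chac1, in the fit to all 12 arrays and with each array left out; filled points have a limma adjusted p under 0.05. Atf3 stays filled throughout, Trib3 is filled only without wild-type vehicle replicate 2, and Chac1 only without wild-type vehicle replicate 3, at -1.70. Ddit3 is filled on 1417516_at without wild-type TM replicate 3 and on 1443897_at without wild-type vehicle replicate 2.

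Upstream of ATF4, 7 of 8 listed eIF2alpha kinases and phosphatase subunits were measured. With TM 3 were called higher and 1 lower in wild-type, and 3 higher and 2 lower in Atf6a-/-, with medians of 0.02 and 0.22. For this and the next lists, the counts over all 18193 genes with TM were 1623 higher and 1255 lower in wild-type. In Atf6a-/- they were 2387 higher and 1493 lower. Eif2ak3, which encodes PERK, rose by 2.28 in wild-type and 2.16 in Atf6a-/-. Nck1, an adaptor tied to eIF2alpha dephosphorylation, rose by 1.25 and 1.57. Eif2ak2, the double-stranded RNA sensor PKR, fell by 0.62 and by 0.61. Ppp1r15a (GADD34), the stress-induced subunit that leads the phosphatase to eIF2alpha, rose by 2.48 and 3.68. Under TM it was higher in Atf6a-/- by 1.27 (SE 0.09, limma adjusted p = 1.36e-05), and its response was larger by 1.20 (limma adjusted p = 9.85e-04). Ppp1r15a was the one gene of this list called between the genotypes, and Eif2ak4 (GCN2), next in the order of the response difference, differed by 0.32 without being called.

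Downstream, 28 of 30 listed targets of ATF4 and CHOP were measured, and Pycr1 and Gdf15 had no probeset of their own. TM raised 17 of the 28 in wild-type and 21 in Atf6a-/- and lowered none, with medians of 1.16 and 1.31, against -0.06 and -0.10 over all genes. Psat1, of serine synthesis, rose by 6.12 and 5.51. Slc7a1, a transporter of cationic amino acids, rose by 2.97 and 3.41. Aldh18a1, of proline synthesis, rose by 4.71 and 3.53, and Wars1, the cytosolic tryptophanyl-tRNA synthetase, by 2.10 and 0.99. In wild-type 11 of the 28 did not pass the test.

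Between the genotypes under TM the targets split, with 4 of 28 higher in Atf6a-/- (Mars1, Sesn2, Slc3a2 and Slc7a5) and 2 lower (Aldh18a1 and Wars1). Mars1, the cytosolic methionyl-tRNA synthetase, was higher by 1.46 and Wars1 lower by 1.04 (limma adjusted p = 3.38e-04 and 3.13e-04). The responses of Mars1 and Wars1 differed by 1.18 and -1.11 (limma adjusted p = 0.0303 and 0.00672), in opposite directions for 2 enzymes of the same kind. Aars1, Gars1, Nars1, Sars1 and Eprs1, tRNA synthetases also on the list, were higher in Atf6a-/- under TM by 0.17 to 0.50, none called. Over the list 2 responses were larger and 1 smaller in Atf6a-/-, and the median difference under TM was 0.17. Of all 18193 genes, 526 were called higher and 279 lower in Atf6a-/- under TM, and 193 responses were called larger and 136 smaller.

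The bZIP proteins that can form dimers with ATF4, ATF3 or CHOP were a further list of 12, all measured. TM raised 3 and lowered 1 in wild-type, and raised 5 and lowered 1 in Atf6a-/-. Cebpa, a liver factor of energy metabolism, fell by 1.13 and by 0.86. Cebpg rose by 1.17 and 1.74, and Cebpd by 1.38 and 1.54. Jun, the AP-1 subunit, rose by 1.09 and 3.21. Under TM 4 of the 12 were higher in Atf6a-/- (Jun, Jund, Cebpb and Nfe2l2) and 0 lower, with a list median of 0.48 beside -0.02 over all genes. Jun was higher by 2.05 (limma adjusted p = 5.70e-04) and Jund by 0.98 (limma adjusted p = 0.00229). Their responses were larger by 2.12 and 1.03 (limma adjusted p = 0.0122 and 0.0332), in the same direction as that of Atf3.

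The ATF6 targets were the list set against these. All 15 were called higher with TM in wild-type and 12 in Atf6a-/-, with medians of 2.61 and 1.31. Under TM 10 of 15 were lower in Atf6a-/- and 0 higher, and 7 responses were called smaller. Sel1l, Syvn1, Creld2 and Derl3 rose in wild-type by 3.11, 3.91, 4.87 and 6.05 and in Atf6a-/- by 1.42, 2.23, 1.96 and 2.80. Pdia4, an ER disulfide isomerase, rose by 3.14 in wild-type and differed by 0.24 in Atf6a-/- (limma adjusted p = 0.259). Its response differed by -2.91 between the genotypes, beside -1.42 for Chac1 and -0.67 for Ddit3, neither of which was called. With vehicle, limma called 0 of the 62 genes of the 4 lists, and 6 had an unadjusted p under 0.05.

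**Figure D5:**
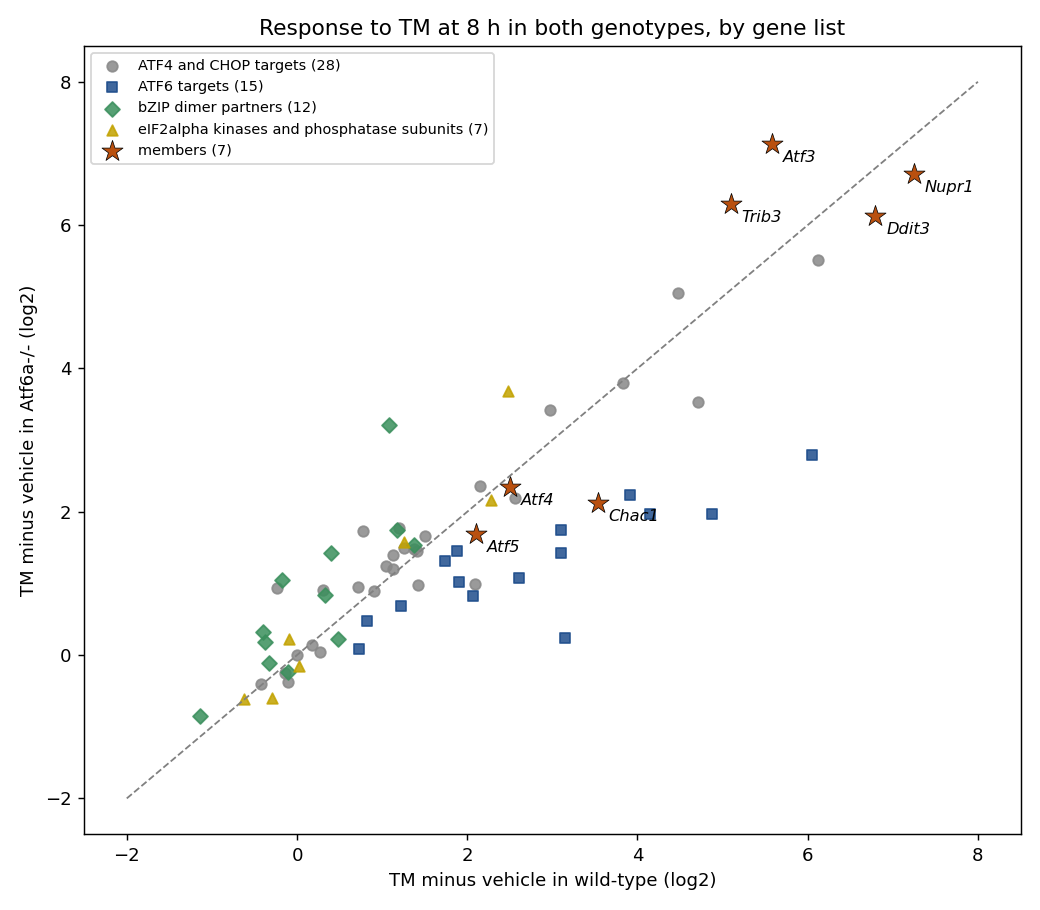
TM minus vehicle (log2) in wild-type against the same in Atf6a-/- liver for 62 genes of 4 lists and the 7 members (stars), each gene by its brightest probeset; the dashed line marks equal responses. Atf3 and Trib3 lie above the line, Ddit3 and Nupr1 below it, Chac1 below it among the ATF6 targets, and Atf4 and Atf5 nearest to it. Of the members, only Atf3 had a response called different between the genotypes.

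Likeness of pattern was measured as the root-mean-square difference between the values of 2 genes over the 12 arrays, each gene centred on its own mean, so a small value means alike in shape and size. Atf4 was most like Ero1a (0.20), an ER oxidase gene, Siah2 (0.20) and Dnajb9 (0.21). Atf5 was most like Fndc3b (0.17), Glt8d1 (0.18) and Rhbdd1 (0.19). The members of large response had few genes of that size to be near: Ddit3 and Nupr1 were each other's nearest (0.54), followed by Psat1 at 0.54 from Ddit3 and 0.66 from Nupr1. Atf3 and Trib3 were each other's nearest (0.67). Atf3 came next to Nupr1 (0.72) and Psat1 (0.78), and Trib3 to Psat1 (0.81) and Nupr1 (0.89), while Atf3 took the third place for Ddit3 (0.82) and for Nupr1.

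Chac1 was nearest to Zfp324 (0.33), Suco (0.44) and Irx3 (0.44). These 3 were lower in Atf6a-/- than in wild-type liver under TM by 1.09, 2.16 and 2.12 on the log2 scale, where Chac1 was lower by 1.70. No member was among them. Of the members, Chac1 was nearest to Atf4 (0.79) and Atf5 (0.84), and it differed by 1.76 from Trib3, 1.86 from Ddit3, 2.07 from Atf3 and 2.19 from Nupr1. The measure covers 12 arrays that share the same 4 groups, and these likenesses are descriptions without a test.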

How the data were processed

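The authors deposited log2 values made by RMA, which subtracts background, quantile normalizes the probe intensities and summarises each probeset. The submitters' processing notes name affy, RMA and limma without versions. RMA compresses differences of dim probesets, and the values carry no detection call. Groups came from the sample titles.

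Of 45101 probesets, 64 Affymetrix controls were left out. Of the rest, 34945 had 1 gene in the platform annotation, 932 several and 9160 none. Each gene was read by the brightest probeset of its own. In R 4.3.3, limma 3.58.1 fitted 1 mean per group to all 12 arrays, with eBayes (8 residual and 4.25 prior degrees of freedom), 5 contrasts and 29 alternative settings in all, and was tested on simulated data. An exact permutation test of 3 against 3 cannot go below p = 0.1 and was not used. The methods' t-test, 2-sided on the same values, was 1 of the alternatives. The number of arrays limits the precision.

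Members and gene lists were chosen with earlier results of these data known. Named genes of a list are the 4 with the largest limma statistic for TM in wild-type and the 2 with the largest for the response difference; others named were singled out after their values were seen. Alike genes are the 3 nearest. The animal numbers were not taken as pairing the samples. Same-numbered arrays correlated between -0.48 and 0.39 in their deviations from the group means. Differently numbered arrays were not compared, so these values cannot show whether animals were paired. Figures were drawn with matplotlib 3.10.9.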

Additional observations from a re-analysis of the deposited data

Results flagged for a closer look

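Atf3 was singled out because its response to TM differed between the genotypes in a direct test of that difference. The response was larger in Atf6a-/- than in wild-type liver by 1.55 on the log2 scale (SE 0.23, limma adjusted p = 0.00632), and every Atf6a-/- TM array lay above every wild-type TM array. No other member probeset passed that test.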

How the results depend on the processing

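Under no alternative did a called difference turn its direction. With TM, 11 of 12 member probesets were called higher in each genotype, and under the alternatives only 1 of these calls was lost: Trib3 on 1426065_a_at in wild-type, with an adjusted p of 0.0528 by the methods' t-test. Between the genotypes under TM, the 1 probeset called higher became 2 without adjustment of the limma p-values, 3 with only the 6 TM arrays, 3 by the methods' t-test without adjustment, 3 with the 4 Y-positive arrays left out (an alternative added after seeing the data) and 0 by that t-test with adjustment. With single arrays left out it ranged from 1 to 2, the 2 arising without wild-type vehicle replicate 2. The 3 called lower became 0 by the adjusted t-test, and at a 2-fold threshold Ddit3 on 1443897_at (-0.94) lost its call. With vehicle, the count of lower probesets ranged from 0 to 1 with single arrays left out, the 1 being Trib3 on 1456225_x_at without wild-type vehicle replicate 2 (-1.39, adjusted p = 0.0417, of a range up to 1.00).

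For the difference in response, the 1 called larger became 2 without adjustment by either test, 3 with those 4 arrays left out and 0 by the adjusted t-test, and ranged from 1 to 3 with single arrays left out (3 without wild-type vehicle replicate 2). The 0 called smaller became 1 with cyclic loess, 1 with a covariate of Y-linked genes and Xist, 2 with array weights, 2 with only the probesets above the median and 3 without adjustment by either test. It ranged from 0 to 1 with single arrays left out, 1 without wild-type vehicle replicate 2 or 3 or wild-type TM replicate 3. By gene, it became 1 with 1 probeset per gene and 1 with the mean of a gene's probesets. Adding the animal number as a replicate block left the counts at 11 and 11 with TM, 1 and 3 between the genotypes under TM, and 1 and 0 for the response. The causes of these changes were not tested. Other scalings moved the median of all probesets by less than 0.1. Dim vehicle signals limit the folds of Atf3, of Nupr1 and of the dimmer Ddit3 probeset, and with them the difference in response of Atf3.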

Other observations

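One array in each group carried Y-linked signal, and the members did not stand alike in it. By brightest probeset, that array was the lowest of 3 in both vehicle groups for Atf3, Trib3, Nupr1 and Chac1. It was the highest for Atf4 and, by little, for Ddit3. In wild-type vehicle the places of Atf3 (5.44 against 5.47) and Chac1 (7.44 against 7.51) were also narrow. Other probesets did not always keep these places. In Atf6a-/- vehicle the array was lowest for Ddit3 on 1443897_at. It was between the others for Nupr1 on 1419665_a_at and Atf4 on 1438992_x_at. For Trib3 the array with Y-linked signal read 6.13 against 8.26 to 8.71 in the other wild-type vehicle animals. In Atf6a-/- vehicle it read 6.82 against 7.19 to 7.85 in the others. With TM some genes kept this place and others did not. Ddit3 was highest in that array in both TM groups, and in wild-type TM Atf4 was again highest and Nupr1 lowest. Atf3, Trib3 and Chac1 were instead highest there in wild-type TM. In Atf6a-/- TM the array was highest for Trib3 by little (13.65 against 13.64), between the others for Atf3, Nupr1 and Chac1 and lowest for Atf4. These places too are by brightest probeset. In Atf6a-/- TM the array was between the others for Ddit3 on 1443897_at and Atf4 on 1438992_x_at, and it was not highest for Trib3 on 1456225_x_at. For Atf5 it was lowest in both wild-type groups and in Atf6a-/- TM, and between the others in Atf6a-/- vehicle. With 1 such array per group this was not tested.

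The 3 Atf4 probesets split in the same way in both genotypes. Probesets 1448135_at and 1438992_x_at rose by 2.50 and 2.96 in wild-type, while 1439258_at stayed within 5.89 to 6.40 on all arrays, above each array's median.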
